A study of Homo sapiens with 6 samples.

Results

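22Rv1 cells with a first stable knockdown of ZMYND11, labelled ZM11-kd1, were compared with control 22Rv1 cells across every gene with enough counts. The 2 libraries labelled ZM11-kd1 and the 2 labelled control were taken from the 6 libraries of the series. The other 2, from a second knockdown, were not compared but stayed in the same fit. They thus entered the filter on low counts, the scaling and the estimate of the spread. Of 35322 gene symbols counted, 16510 passed the filter on low counts and were tested. 22Rv1 is an established human prostate carcinoma line that came from a xenograft relapsed after castration. All cells grew in RPMI medium with fetal bovine serum. The study's methods describe lines that stably carry lentiviral shRNAs and were selected with puromycin. The labels give the genotype of the control cells as WT, whereas the study describes its sequenced control cells as carrying a control shRNA. Which shRNA ZM11-kd1 carried, and whether its cells were a pool or 1 clone, is not given in the sources used here. Effects of ZMYND11 loss therefore cannot be told apart from other effects of that shRNA. Nothing in the labels says that the 2 libraries of a group came from separate cultures, so the p-values measure only the spread between these libraries, which may be technical.

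ZMYND11 is a nuclear protein that reads a methylated lysine on a variant histone found in transcribed gene bodies and is known to restrain elongation by RNA polymerase II. It also associates with splicing factors. Growth of a carcinoma cell draws on mitochondrial respiration, protein synthesis and protein breakdown, and prostate cells add an androgen-driven secretory programme. Fast-responding transcription factors of the FOS, JUN and EGR families sit downstream of many growth and stress signals.

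ZMYND11, on chromosome 10 from 130088 to 254637 of GRCh38, had 141 and 135 CPM in the control libraries and 27.7 and 26.1 in ZM11-kd1. CPM are counts scaled to a fixed library size after TMM scaling. The log2 fold change was -2.35 (standard error 0.0661, adjusted p = 5.00e-13, edgeR). In all that follows, sizes of rises and falls are log2 fold changes, the value after ± is the standard error, and adjusted p-values are those of edgeR's quasi-likelihood test over all 16510 genes. Library totals ran from 26844128 to 38193748 counts, and the 10 most abundant genes held between 9.43% and 10.5% of a library. The 9 fixed markers of prostate epithelium summed to 3445 and 3426 CPM in control and to 3093 and 3080 in ZM11-kd1. Markers of endothelium (8 genes) summed to between 0.444 and 0.905 CPM per library, with CDH5 and KDR at 0 in all 4. Leukocyte markers (10 genes) summed to between 2.01 and 4.45 CPM, with CD3E at 0.

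Of the 16510 genes, 12882 (78%) were called at an adjusted p under 0.05, 6310 higher (38.2%) and 6572 lower (39.8%). A change of at least 2-fold was called for 3161 genes higher (19.1%) and 3784 lower (22.9%). The groups did not overlap at 14807 genes (89.69%). A list in which 38.2% of the members rose is at the background. The median log2 fold change over all genes was -0.03, and the middle 50% of genes lay between -0.95 and 0.80. Scaling by library totals alone shifted that median by -0.35, and calls were then 4596 higher and 8420 lower (35.3% higher, against 49.0% with TMM scaling). Values below are relative to the TMM scaling unless stated.

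Change went with gene length. Among genes with an annotated length, the tenth with the shortest transcripts, 55 to 1046 bases, had a median log2 fold change of 0.71 with 52.5% called higher. The tenth with the longest, 7402 bases or more, had -0.78 with 69.8% called lower. A fit corrected for GC content and length brought both medians to -0.01 and kept 10515 of the 12882 calls (81.6%) in the same direction. Since several lists hold mostly short or mostly long genes, the corrected median stands beside the uncorrected one for most lists below. The part of length in each list was not tested beyond this correction.

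The proliferation programme fell, and it is given here only as the frame for the rest. Of 40 cell cycle genes 39 fell and 0 rose, with a median log2 fold change of -4.46. MKI67, the common marker of cycling cells, had 187 and 189 CPM in control and 0.648 and 0.709 in ZM11-kd1. Outside that list, 14 of the 15 largest falls among well-expressed genes were also genes of mitosis, chromosome segregation or the growth cycle, led by the spindle protein ASPM with 106 and 105 CPM in control and 0.648 and 0.372 in ZM11-kd1 (log2 fold change -7.66 ± 0.14, adjusted p = 1.35e-14). The exception was DHRS2, a dehydrogenase/reductase, which went from 83.7 and 85.6 CPM in control to 0.618 and 1.01 in ZM11-kd1 (log2 fold change -6.71 ± 0.13, adjusted p = 3.31e-14). Of 40 kinesins 29 fell and 5 rose (33 and 1 with library totals). The falls were led by the mitotic motors KIF18B and KIF14, while KIF1A, the motor of synaptic vesicle precursors, rose by 1.41 on the log2 scale.

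The largest rises were of another kind. GSTA3, a glutathione transferase also active in steroid isomerization, went from 0.887 and 0.741 to 24.0 and 25.2 CPM (log2 fold change 4.91 ± 0.19, adjusted p = 9.67e-12). The groups were far apart, but the control libraries held few counts, so the size of the fold is loosely set. STMN4, a neuronal member of the stathmin family, had more counts behind it, with 36.0 and 39.7 CPM in control and 1041 and 1111 in ZM11-kd1 (log2 fold change 4.83 ± 0.07, adjusted p = 3.81e-15). CEND1, a protein of neurons leaving the cell cycle, rose by 4.56 on the log2 scale, the membrane protease ECEL1 by 4.19, the SNARE protein VAMP5 by 3.84, TMEM59L by 3.75, the homeobox factor DLX3 by 3.70 and the inositol oxygenase MIOX by 3.67. CEND1, ECEL1, VAMP5, DLX3 and MIOX had between 29 and 71 counts in each control library, so their sizes are loosely set too. NBL1, a BMP antagonist, rose by 4.19, but its counts equal those of the read-through gene MICOS10-NBL1 in every library, so which of them the reads belong to is uncertain. HSPB1, ID3, H1-2 and H2AC6, also among the largest rises, are described with their families.

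**Figure D1:**
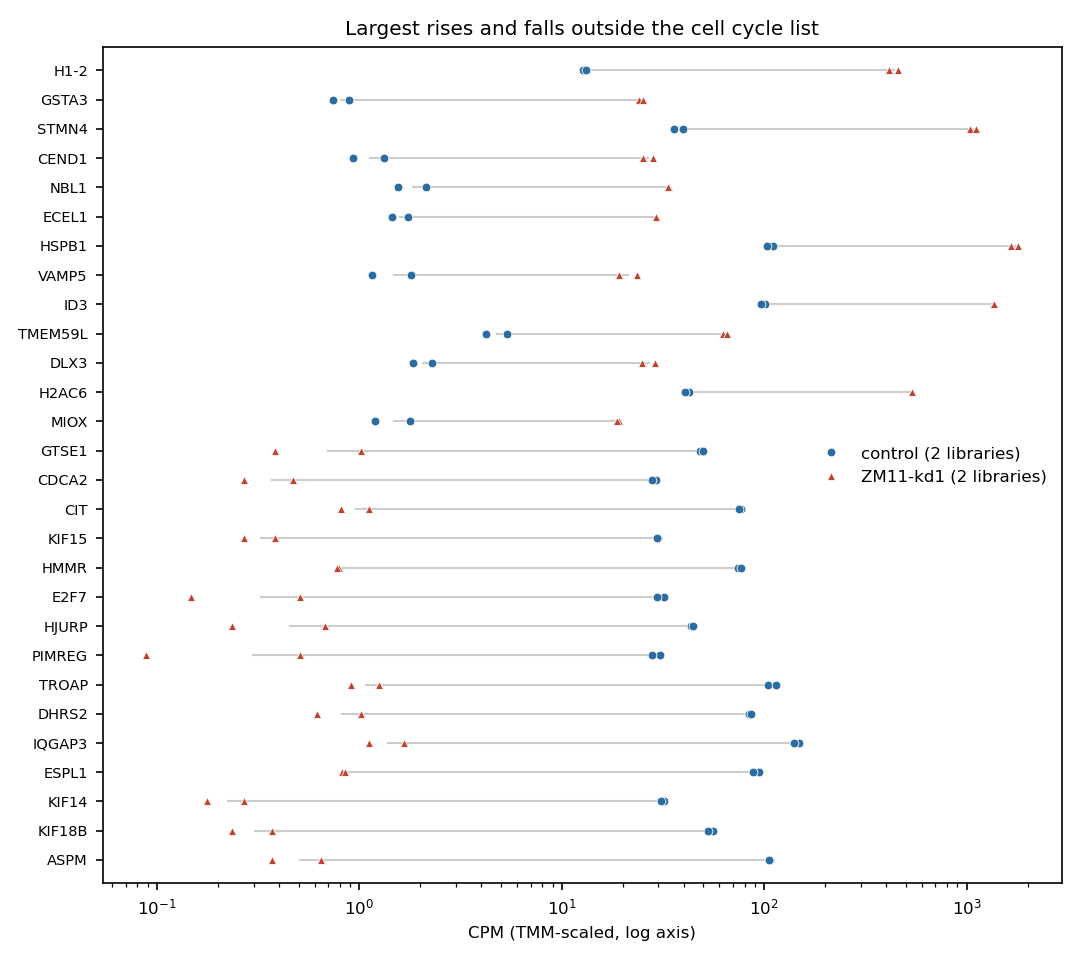
CPM in each of the 4 libraries (log axis) for 28 of the 30 largest rises and falls outside the cell cycle list. MICOS10-NBL1, whose counts equal those of NBL1, is not drawn. Genes run from H1-2 with a log2 fold change of 5.07 at the top to ASPM with -7.66 at the bottom. In all 28 both ZM11-kd1 libraries (triangles) lie on one side of both control libraries (circles), which the choice of these genes required.

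Genes of mitochondrial respiration rose together. Of 76 nuclear genes for subunits of the respiratory chain and ATP synthase, 67 rose and 4 fell (57 and 11 after correction), and 45 rose at least 2-fold. Their median log2 fold change was 1.25, or 0.84 with the correction. By complex, 31 of 37 genes rose in complex I (NADH dehydrogenase), 3 of 4 in complex II, 8 of 9 in complex III, 10 of 10 in complex IV (cytochrome c oxidase) and 14 of 15 in ATP synthase. COX6B1, a peripheral subunit of cytochrome c oxidase, had 93.8 and 104 CPM in control and 462 and 504 in ZM11-kd1 (log2 fold change 2.29 ± 0.08, adjusted p = 3.35e-12). COX4I1, which is needed for assembly of the same enzyme, had 291 and 298 and 1251 and 1377 CPM (log2 fold change 2.16 ± 0.08, adjusted p = 4.25e-12). In both genes the libraries of a group lay close together and the groups far apart. ATP5MC3, a copy of the gene for the rotor ring, rose by 2.27, UQCR10 of complex III by 2.24 and the catalytic ATP synthase subunit ATP5F1A by 0.92. The falls were few: NDUFS1, the largest core subunit of complex I, fell from 113 and 115.5 to 77.0 and 74.5 CPM (log2 fold change -0.59 ± 0.06, adjusted p = 3.15e-07) but stood at 0.33 after correction, and NDUFA13 fell by 2.05 on the log2 scale.

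Of 13 subunits encoded by mitochondrial DNA, 9 rose and 3 fell, with a median of 0.71, and 0.24 after correction. ND1 of complex I rose by 0.74, cytochrome b (CYTB) by 1.08 and COX2 by 1.01, whereas COX1 was not called at -0.09 (adjusted p = 0.0940; called lower at -0.31 after correction and -0.44 with library totals) and ND4L fell by 1.67. Some of these genes overlap on the mitochondrial genome and use of strand in counting is not given in the sources used here, so single values such as ND6 and ATP8 are uncertain. Of 73 proteins of the mitochondrial ribosome 54 rose and 10 fell (median 0.75, corrected 0.38; 42 higher and 19 lower after correction), with MRPS34 at 1.98 and MRPS25 at -1.91.

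Nuclear respiratory factor 1 (NRF1) is a known activator of respiratory chain genes, and its motif was therefore looked up in RefSeq promoters (GRCh38.p14, from 250 bases before to 50 after the start site). The letters GCGCATGCG, on either strand, stood in 10 of the 63 promoters found for the 76 genes (15.9%), against 573 of all 27305 promoters (2.1%). All 10 genes rose in ZM11-kd1, by 0.55 to 2.23 on the log2 scale, as did most respiratory chain genes without the letters. A match is a description of these letters and not a mapped site. The genes were chosen after their values were seen. The windows of 4 of them, from 4 of the complexes, are shown with the motif in capitals, which also cover the overlapping match on the opposite strand where there is one.
NDUFB4, chr3:120596152-120596210 (+ strand): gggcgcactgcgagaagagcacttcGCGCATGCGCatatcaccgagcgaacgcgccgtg
SDHD, chr11:112086738-112086796 (+ strand): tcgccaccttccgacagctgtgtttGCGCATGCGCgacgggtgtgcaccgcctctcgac
COX6A1, chr12:120437869-120437927 (+ strand): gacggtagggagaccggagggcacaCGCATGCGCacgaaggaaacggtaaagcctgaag
ATP5ME, chr4:674321-674379 (- strand): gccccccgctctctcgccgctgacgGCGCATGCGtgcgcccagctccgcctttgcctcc
In these genes the log2 fold change was 1.83 for NDUFB4 of complex I, 0.99 for SDHD of complex II, 2.03 for COX6A1 of complex IV and 2.23 for ATP5ME of ATP synthase. The letters CCGGAAGTG, a motif of ETS factors, were looked up in the same way and stood in 3 of the 63 promoters (4.76%, against 2.5% of all promoters), and of these genes UQCRH rose by 1.27 while NDUFA13 and NDUFS1 fell. In the proteasome list they stood in 3 of 35 promoters (8.57%), of genes of which 2 rose and 1 fell.

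Central carbon metabolism did not follow the respiratory chain as a whole. Of 32 genes of the tricarboxylic acid cycle and pyruvate entry 18 rose and 8 fell (12 and 16 with library totals). Their median of 0.23 (corrected 0.26) became -0.13 with library totals. Malate dehydrogenases MDH1 and MDH2 rose by 1.66 and 1.38, and IDH3G by 1.51. IDH2, the NADP-dependent mitochondrial isocitrate dehydrogenase, moved the other way, from 40.4 and 39.2 CPM in control to 4.53 and 4.46 in ZM11-kd1 (log2 fold change -3.14 ± 0.11, adjusted p = 5.13e-12). The pyruvate dehydrogenase kinases PDK1 and PDK3, which inhibit pyruvate entry, fell (-1.82 and -1.97), and citrate synthase (CS) was not called (0.09, adjusted p = 0.131; called at 0.16 after correction and -0.27 with library totals). Among 24 glycolysis genes 9 rose and 9 fell, each 37.5% and near the background of 38.2% and 39.8% (5 and 12 with library totals). The largest fall of these was the lactate and pyruvate transporter SLC16A1, with 26.5 and 26.9 CPM in control and 0.677 and 0.946 in ZM11-kd1 (log2 fold change -5.05 ± 0.16, adjusted p = 1.91e-12), and the glucose transporter SLC2A1 fell by 1.99. LDHA and PKM, which make lactate and pyruvate, rose by 1.04 and 0.79, and hexokinase HK2 fell by 1.10.

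Amino acid transporters fell more often than they rose, and the lipid lists moved both ways. Of 23 amino acid transporters 17 fell and 2 rose (median -0.67, corrected -0.62; 5 higher and 16 lower after correction). SLC7A5, the large neutral amino acid exchanger that brings in leucine, had 3082 and 2983 CPM in control and 146 and 141 in ZM11-kd1 (log2 fold change -4.40 ± 0.06, adjusted p = 2.52e-15). Its partner chain SLC3A2 instead rose by 0.44 (not called with library totals, 0.09, or after correction, -0.08), and the glutamate transporter SLC1A3 fell by 3.73. Of 33 genes of fatty acid synthesis and breakdown 19 fell and 10 rose, and the median of -0.42 came to -0.08 after correction (10 higher and 16 lower). Among the falls were acetyl-CoA carboxylase ACACA at -3.80, the desaturase FADS1 at -2.73, the elongase ELOVL6 at -2.61 and fatty acid synthase FASN at -0.54. Among the rises were the mitochondrial oxidation enzymes ACADVL at 1.29, HADHA at 1.12 and HADHB at 1.22 and the binding protein FABP5 at 2.24. Cholesterol synthesis and uptake stood near the background of 38.2% and 39.8%, with 14 of 33 higher (42.4%) and 13 lower (39.4%). With library totals 6 were higher, and the median of 0.10 (corrected 0.03) was -0.26. CYP51A1 and HMGCS1 fell (-3.19, or -4.27 without ZM11-kd1 replicate 1, and -1.70) while MVD and IDI1 rose by 1.01 and 0.94.

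Genes of the cytosolic ribosome and of translation rose more often than they fell, and those of ribosome assembly fell more often than they rose. Of 77 cytosolic ribosomal protein genes 68 rose and 3 fell (median 0.81, corrected 0.41; 52 higher and 17 lower after correction), with RPL24 at 1.76, RPL38 at 1.65 and RPL5 at 1.04. The 3 falls were RPS10 at -2.21, RPL17 at -1.07 and RPL11 at -0.22, which was not called without control replicate 2 (-0.18, adjusted p = 0.118) or without ZM11-kd1 replicate 1 (-0.14, adjusted p = 0.194). Many of these genes have processed pseudogene copies, so reads may be split between them and single values are uncertain. Of 43 translation factors 29 rose and 11 fell. EIF1, which guards start codon choice, rose by 1.46, the cap-binding protein EIF4E by 0.89 and its inhibitor EIF4EBP1 by 1.32. EEF2K, the kinase that inhibits elongation factor EEF2, fell from 15.9 and 14.7 to 1.82 and 1.25 CPM (log2 fold change -3.30 ± 0.18, adjusted p = 3.93e-10), and the helicase EIF4A1 fell by 2.89. Among 42 ribosome biogenesis genes 21 fell and 14 rose (30 and 4 with library totals). The falls held factors of rRNA transcription and early processing, HEATR1 (-2.35), TCOF1 (-1.95), RRN3 (-1.48) and UTP20 (-1.47), and the rises held RRP12 (1.41) and PES1 (1.38).

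Proteasome genes rose. Of 40 proteasome genes 34 rose and 4 fell, 22 of them rising at least 2-fold (median 1.12, corrected 0.75). In the catalytic core 9 of 10 beta subunits rose and 5 of 7 alpha subunits, of which the other 2 fell (lowest -1.98), and in the cap 6 of 6 ATPases and 10 of 11 other subunits. PSMB6, a constitutive catalytic subunit, had 95.4 and 98.2 CPM in control and 385 and 405 in ZM11-kd1 (log2 fold change 2.03 ± 0.07, adjusted p = 4.73e-12). PSMB10 and PSMB8, catalytic subunits of the immunoproteasome, rose by 2.28 and 2.01. Ubiquitin-conjugating UBE2 enzymes rose in 21 of 37 cases and fell in 10 (19 and 16 with library totals), while the mitotic UBE2C fell by 5.17. Ubiquitin-specific proteases fell in 29 of 50 cases and rose in 12 (22 and 19 after correction), but their median of -0.50 was -0.02 once corrected; USP34 fell by 3.40 and USP11 rose by 1.49.

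Of 58 lysosome and autophagy genes 42 rose and 12 fell, with a median of 0.84 that was little changed by correction (0.80). All 8 listed subunits of the vacuolar proton pump, accessory ones included, rose, as did 5 of 5 members of the ATG8 family, which coat autophagosome membranes. Cathepsin D (CTSD), an aspartic protease of the lysosome, had 54.3 and 52.5 CPM in control and 318 and 336 in ZM11-kd1 (log2 fold change 2.61 ± 0.09, adjusted p = 3.19e-12). OPTN, an autophagy receptor, went from 5.65 and 5.99 to 47.2 and 50.9 CPM (log2 fold change 3.07 ± 0.10, adjusted p = 2.76e-12). The autophagy receptor SQSTM1 rose by 1.45, the acid sphingomyelinase SMPD1 by 2.61 and the lysosomal membrane protein LAMP1 by 1.67. ATG9A, the lipid scramblase of autophagosome precursors, fell by 2.46 and the dipeptidyl peptidase CTSC fell by 1.05. RAB GTPases, which direct vesicle traffic, rose in 39 of 59 cases and fell in 12 (median 0.62, corrected 0.67; 29 higher and 19 lower with library totals), with RAB34 at 3.44 and RAB39A at -3.71.

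The letters TCACGTGA, the core of the CLEAR element through which TFEB and related factors activate lysosomal genes, stood in 6 of 41 promoters found for the lysosome and autophagy list (14.6%) and in 283 of 27305 promoters (1.04%). Of these 6 genes, 4 rose, CLN3, a lysosomal membrane protein, fell and GAA (acid alpha-glucosidase) was not called. The windows of 3 that rose, of CLN3 and of GAA are shown, with the motif in capitals (RefSeq promoters, GRCh38.p14).
LAMP1, chr13:113297185-113297242 (+ strand): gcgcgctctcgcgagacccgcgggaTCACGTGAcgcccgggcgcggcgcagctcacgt
CTSA, chr20:45891284-45891341 (+ strand): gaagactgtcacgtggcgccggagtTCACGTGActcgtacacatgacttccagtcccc
ATP6V0D1, chr16:67481185-67481242 (- strand): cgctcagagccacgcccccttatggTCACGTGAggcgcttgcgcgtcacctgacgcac
CLN3, chr16:28492044-28492101 (- strand): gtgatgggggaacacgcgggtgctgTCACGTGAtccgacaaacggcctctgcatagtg
GAA, chr17:80101479-80101536 (+ strand): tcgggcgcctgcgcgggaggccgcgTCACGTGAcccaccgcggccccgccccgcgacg
The log2 fold change was 1.67 for LAMP1, 1.37 for the protective protein cathepsin A (CTSA), 1.96 for the proton pump subunit ATP6V0D1 and -0.09 for GAA (adjusted p = 0.118), which was called lower at -0.49 after correction and at -0.45 with library totals. CLN3 was counted 18 and 19 times in control and 0 and 1 times in ZM11-kd1 (adjusted p = 9.11e-04), too few for a size of the fall. The same letters thus stood before genes that rose and before one that fell.

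**Figure D2:**
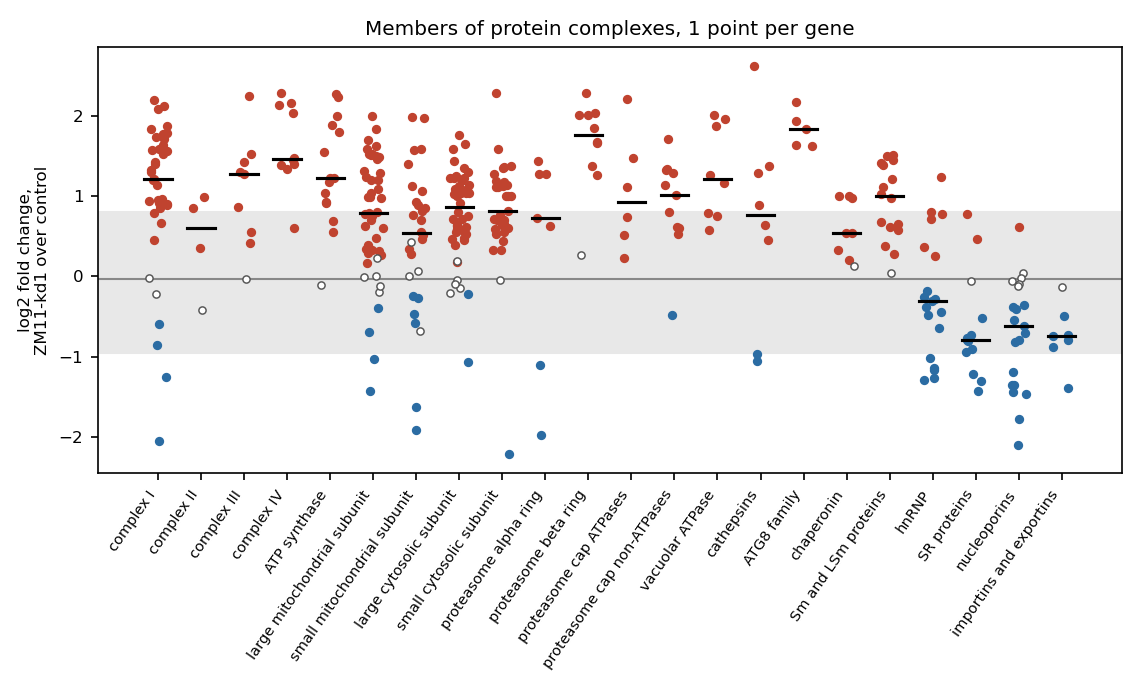
Log2 fold change of each gene in 22 complexes or parts of gene lists, 1 point per gene, red for called higher, blue for called lower and white for not called, with black bars at the median and the grey band over the middle 50% of all genes. Respiratory complexes, the proteasome beta ring (median 1.76), the vacuolar ATPase and the Sm and LSm proteins (median 1.00) lie above the median of all genes, and SR proteins, nucleoporins and importins and exportins below it.

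Chaperones rose as a list. Of 38 heat shock proteins and co-chaperones 31 rose and 4 fell (median 0.73, corrected 0.72; 26 higher and 9 lower with library totals). Small heat shock proteins led, and HSPB1 had 110.2 and 103 CPM in control and 1665 and 1801 in ZM11-kd1 (log2 fold change 4.02 ± 0.09, adjusted p = 4.24e-14). CRYAB (alpha-B-crystallin), of the same family, had 0.296 and 0.322 and 4.06 and 4.80 CPM (log2 fold change 3.82 ± 0.31, adjusted p = 3.05e-08). HSPB8 rose by 3.12, DNAJB2 by 2.83, HSP90AA1 by 0.82, and 7 of 8 subunits of the TCP1 chaperonin rose. The mitochondrial TRAP1 and the androgen-induced co-chaperone FKBP5 fell (-1.39 and -2.45). HSPA1A had too few counts to be tested. The heat shock element GAANNTTCNNGAA, on either strand, stood in 3 of 35 promoters found for the list (8.57%, against 0.487% of all promoters), and all 3 genes rose. Endoplasmic reticulum chaperones were split, with 15 of 32 higher and 11 lower (11 and 17 with library totals). HSPA5 (BiP), the main chaperone of that compartment, was not called (-0.10, adjusted p = 0.0931; called at 0.25 after correction and -0.45 with library totals), and XBP1 rose by 1.18 while HYOU1 and CANX fell (-2.22 and -2.51).

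Other stress programmes were mixed within themselves. In the integrated stress response 16 of 30 genes rose and 11 fell, against 13 and 14 after correction. ATF4, its central factor, rose by 0.20 (-0.30 after correction, and 0.17 with adjusted p = 0.0753 without control replicate 1) and its target CHAC1 by 1.69, whereas the target ASNS (asparagine synthetase) went from 12.2 and 11.7 to 3.12 and 2.77 CPM (log2 fold change -2.01 ± 0.14, adjusted p = 7.08e-09). Of 34 p53 targets 18 rose and 14 fell, and the median of 0.26 (corrected 0.12) was -0.09 with library totals. CDKN1A (p21), the inhibitor of cyclin-dependent kinases, had 208 and 205 CPM in control and 383 and 367 in ZM11-kd1 (log2 fold change 0.86 ± 0.05, adjusted p = 1.15e-09). GADD45A rose by 2.13, MDM2 was not called (-0.07, adjusted p = 0.218; called at 0.68 after correction and -0.43 with library totals), and FAS and TP53INP1 fell (-1.27 and -1.21). Of 33 hypoxia targets 18 rose and 11 fell (median 0.31, and -0.04 with library totals), and after correction 21 were higher and 8 lower (median 0.54). Among them were the peptide adrenomedullin (ADM) at 3.43, VEGFA at 0.56 and the oxygen sensor EGLN2 at -3.01. Of 28 NRF2 antioxidant genes 18 rose and 8 fell (median 0.66, corrected 0.42), with NQO1 at 0.96, ferritin light chain FTL at 2.08 and GCLM, a subunit of the glutathione-making enzyme, at -0.67 (not called after correction, -0.12). Metallothioneins rose in 6 of 7 tested genes, with MT2A at 1.77, although these are near-identical paralogs whose reads may be split.

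Steroid and xenobiotic enzymes moved in opposite ways by family. Of 9 aldo-keto reductases 7 rose and none was called lower (median 1.45, corrected 0.83), led by AKR1C1, which inactivates progesterone, at 2.14 and AKR7A2 at 1.67. The AKR1C genes are close paralogs, so their single values are uncertain. Of 10 UGT genes, which attach sugars to steroids, drugs or lipids, 8 fell (4 where each library had to hold at least 10 counts) and none was called higher (median -2.07, corrected -1.92). UGT8, which makes galactosylceramide, had 64.3 and 61.5 CPM in control and 12.8 and 12.7 in ZM11-kd1 (log2 fold change -2.30 ± 0.08, adjusted p = 5.27e-12).

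Immediate early genes rose. Of 33 such genes 27 rose and 4 fell, 19 rising at least 2-fold, and their median of 1.35 stood at 1.36 once corrected and at 1.00 with library totals. FOS, which pairs with JUN proteins in the AP-1 factor, had 58.3 and 57.8 CPM in control and 630.4 and 617 in ZM11-kd1 (log2 fold change 3.43 ± 0.05, adjusted p = 5.69e-15). EGR1, a zinc finger factor induced within minutes of growth signals, had 69.1 and 67.0 and 465 and 472 CPM (log2 fold change 2.78 ± 0.05, adjusted p = 2.39e-14). JUNB had 39.0 and 38.3 and 302 and 302 CPM (log2 fold change 2.96 ± 0.06, adjusted p = 3.94e-14). No library of one group reached the level of the other in these genes, as was so at 89.69% of all genes. FOSB and IER2 rose by 2.97 and 2.85. MYC, which is also a fast-responding gene, went the other way, from 132 and 132 CPM in control to 17.8 and 18.6 in ZM11-kd1 (log2 fold change -2.85 ± 0.06, adjusted p = 6.98e-14). SRF, the factor that drives many of these genes, fell by 0.50, and ZFP36L2, which destabilizes mRNAs, fell by 1.73.

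SRF binds CArG boxes, which have CC and GG at their ends and 6 bases of A or T between them. A CArG box stood in 2 of 25 promoters found for the 34 listed immediate early genes (8%), against 351 of 27305 (1.29%). These were EGR1, which rose, and SRF itself, which fell, and their windows are shown with the boxes in capitals (RefSeq promoters, GRCh38.p14).
EGR1, chr5:138465349-138465408 (+ strand): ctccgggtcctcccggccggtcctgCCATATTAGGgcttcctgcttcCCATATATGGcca
SRF, chr6:43171214-43171273 (+ strand): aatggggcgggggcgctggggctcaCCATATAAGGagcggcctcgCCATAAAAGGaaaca
Both windows hold 2 boxes, beside log2 fold changes of 2.78 and -0.50. The cyclic AMP response element TGACGTCA stood in 2 of the 25 promoters (8%, against 1.98% of all promoters), and both genes rose.

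**Figure D3:**
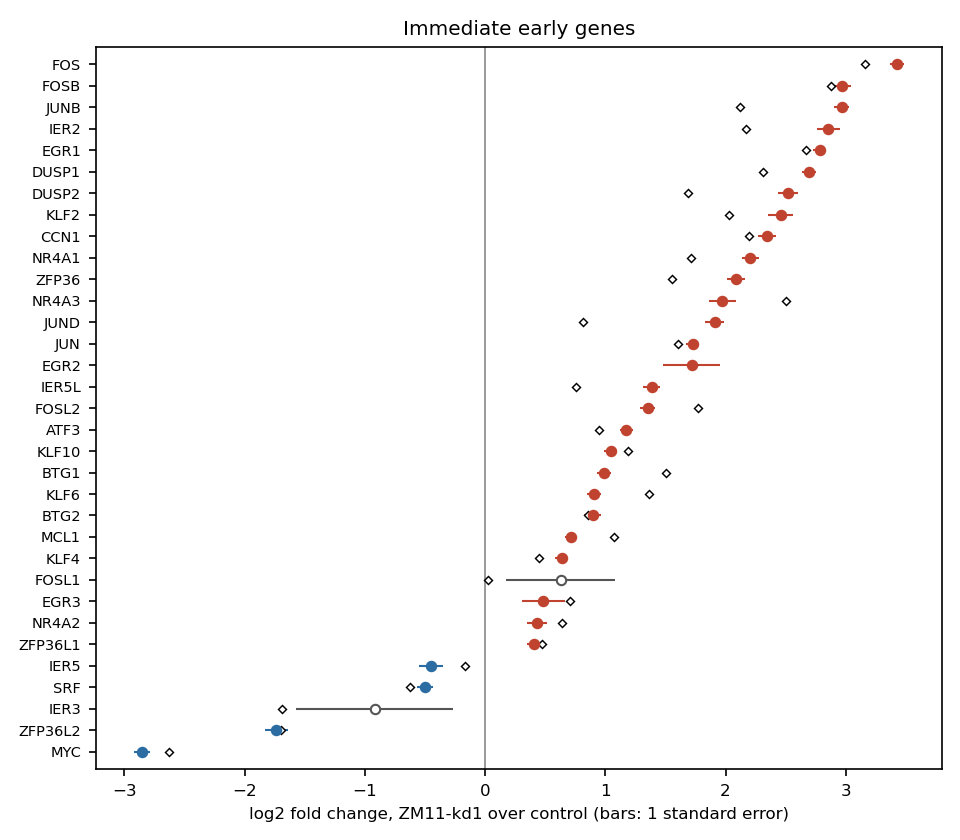
Log2 fold change of 33 immediate early genes in ZM11-kd1 against control, with bars of 1 standard error, filled circles for called genes, open circles for genes not called and diamonds for the value after correction for GC content and length. Most genes lie right of 0, with FOS at 3.43 at the top, and MYC at -2.85 at the bottom.

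Growth factor signalling genes were mostly lower. Of 40 receptor tyrosine kinase and RAS-ERK genes 24 fell and 9 rose (median -0.62, corrected -0.29). The hepatocyte growth factor receptor MET had 35.2 and 30.8 CPM in control and 2.27 and 2.53 in ZM11-kd1 (log2 fold change -3.78 ± 0.15, adjusted p = 1.76e-11). EGFR went from 87.2 and 83.3 to 14.0 and 12.7 CPM (log2 fold change -2.68 ± 0.10, adjusted p = 5.45e-12). ERBB3 and FGFR4 fell (-1.91 and -2.57), while FGFR1, ERBB2 and KIT rose by 2.41, 1.96 and 1.93, so receptors of the same families moved both ways. The ETS factor ETV4, which ERK activity induces, fell by 2.11.

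Of 29 genes of the Hippo pathway and YAP targets 18 fell and 3 rose (median -0.43, corrected -0.19). After correction the split was closer, with 13 lower and 10 higher. CCN2, a matricellular protein and common YAP target, had 254 and 255 CPM in control and 14.1 and 15.5 in ZM11-kd1 (log2 fold change -4.11 ± 0.08, adjusted p = 1.39e-14). Its relative CCN1, also a YAP target and an immediate early gene, moved in the opposite direction, from 15.4 and 16.4 to 78.6 and 82.8 CPM (log2 fold change 2.34 ± 0.08, adjusted p = 2.51e-12). The coactivator YAP1 fell by 0.42 (0.12 after correction) and WWTR1 (TAZ) fell by 2.23. In the TGF-beta and BMP list 20 of 41 genes rose (13 with library totals) and 14 fell (median 0.15, and -0.20 with library totals). After correction 24 were higher and 11 lower, with a median of 0.49. All 4 ID genes, BMP-induced inhibitors of basic helix-loop-helix factors, rose, and ID3 had 100.4 and 96.3 CPM in control and 1352 and 1369 in ZM11-kd1 (log2 fold change 3.79 ± 0.07, adjusted p = 1.17e-14). ID1 had 238 and 239.6 and 2192 and 2327 CPM (log2 fold change 3.24 ± 0.07, adjusted p = 8.12e-14). The TGF-beta ligand relative GDF11 and the receptor ACVR2B fell (-2.60 and -1.27). In the Wnt list 20 of 41 genes fell and 14 rose, with the co-receptor LRP6 at -4.21 and the target and receptor LGR5 at -2.14, against the ligand WNT5B at 2.41 (3.07 without control replicate 1) and the antagonist DKK1 at 1.53. Of 33 apoptosis regulators 21 rose and 11 fell (21 and 7 after correction, and 16 and 14 with library totals), and both death-promoting genes (BIK 3.23, BID 2.07, BAD 1.94) and the protective BCL2L1 (1.21) were among the rises, while the protective BCL2 (-2.13) and the caspase activator APAF1 (-2.70) fell.

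Androgen response genes fell more often than they rose. Of 26 genes of the androgen response 15 fell and 5 rose (median -1.02, corrected -0.80), and 13 fell at least 2-fold. KLK3, which encodes prostate-specific antigen, had 40.6 and 39.2 CPM in control and 4.33 and 4.09 in ZM11-kd1 (log2 fold change -3.24 ± 0.11, adjusted p = 4.25e-12). SLC45A3 (prostein) and FKBP5 fell (-3.28 and -2.45). The libraries of the groups did not overlap in any of these, as was so at 89.69% of all genes. FOLH1, prostate-specific membrane antigen, which is held down by androgen, rose by 1.26, KLK4 by 0.27 (-0.56 after correction, and -0.087 and not called with library totals) and STEAP1 by 0.53.

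Of 27 genes of prostate and luminal identity 16 rose and 5 fell (median 0.49, corrected 0.25; 12 higher and 10 lower with library totals). HOXB13, the prostate homeobox factor, had 205 and 204 CPM in control and 287 and 287 in ZM11-kd1 (log2 fold change 0.49 ± 0.05, adjusted p = 3.48e-07), and the pioneer factor FOXA1 rose by 0.33 (-0.029 and not called with library totals). Keratins rose in 6 of 8 cases, with KRT19 at 1.85 and KRT18 at 1.25, and GATA3 fell by 2.03. Of 30 neuroendocrine and neuronal genes 11 rose (36.7%) and 12 fell (40%), near the background of 38.2% and 39.8%. With library totals 6 were higher and 14 lower. NSG2, a neuronal endosome protein, was counted 410 and 445 times in control and 2 and 0 times in ZM11-kd1 (adjusted p = 2.85e-11), too few for a size of the fall. Chromogranin A (CHGA) fell from 5.95 and 6.15 to 0.736 and 1.05 CPM (log2 fold change -2.77 ± 0.24, adjusted p = 6.10e-08), and the neural splicing factor SRRM4 fell by 2.72. Synaptotagmin 11 (SYT11) rose by 3.03 and the factor NKX2-1 by 2.12, while synaptophysin (SYP) was not called (adjusted p = 0.993), and its libraries overlapped between the groups, but it was called lower at -0.41 after correction and at -0.36 with library totals.

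Genes of the mesenchymal switch were also near the background of 38.2% and 39.8%, with 8 of 21 higher (38.1%) and 7 lower (33.3%). Vimentin (VIM), the intermediate filament of mesenchymal cells, had 5.75 and 6.18 CPM in control and 62.4 and 68.9 in ZM11-kd1 (log2 fold change 3.46 ± 0.10, adjusted p = 4.35e-13). TWIST1 rose by 2.16, whereas tenascin C (TNC) fell by 2.51, fibronectin (FN1) fell by 0.73 (not called after correction, -0.11) and ZEB1 was not called (0.33, adjusted p = 0.492; called higher at 0.95 after correction). S100 proteins, small calcium-binding proteins, rose in 8 of 11 cases (median 2.10, corrected 1.37), with S100A6 at 3.03, and annexins, which bind membranes in the presence of calcium, in 9 of 11 with none called lower, led by ANXA2 at 2.86. Of 34 collagens, laminins and other matrix genes 16 fell and 11 rose (median -0.61, corrected -0.48), with LAMA3 at -2.79 and COL4A2 at 2.18. Of 32 integrin and focal adhesion genes 19 fell (12 after correction) and 7 rose (10 after correction), but the median of -0.46 was 0.03 after correction, and ITGB1, the shared beta chain of many matrix receptors, fell by 1.56. Scaled to library totals without TMM, the 10 fibroblast markers summed to 59.8 and 54.6 CPM in control and 78.6 and 78.4 in ZM11-kd1. None of them stood at 0 in all 4 libraries, and COL1A1 rose by 1.64 while FBLN1 fell by 3.05. The part of the fibroblast markers in the mesenchymal and matrix values was not tested.

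Innate immune genes moved both ways. Of 51 interferon-stimulated genes 20 rose (39.2%, near the background of 38.2%) and 15 fell (29.4%, against 39.8%), with a median of 0.42 (corrected 0.34). With library totals, however, 16 were higher and 23 lower (median 0.07). The factor IRF7 had 3.52 and 4.12 CPM in control and 22.1 and 21.7 in ZM11-kd1 (log2 fold change 2.52 ± 0.12, adjusted p = 1.32e-10), and the ubiquitin-like ISG15 rose by 1.88. The interferon-stimulated response element GAAANNGAAA, on either strand, stood in 25 of 44 promoters found for the list (56.8%, against 3.65% of all promoters), and of these 25 genes 10 rose and 8 fell. OAS3, which makes the activator of RNase L, went from 27.8 and 25.9 to 1.00 and 1.52 CPM (log2 fold change -4.43 ± 0.16, adjusted p = 7.21e-12). In the presentation of antigens on MHC class I, 10 of 20 genes rose and 6 fell. NLRC5, the transactivator of these genes, had 0.592 and 0.354 CPM in control and 6.68 and 5.54 in ZM11-kd1 (log2 fold change 3.69 ± 0.27, adjusted p = 1.12e-08), and beta-2-microglobulin (B2M) rose by 1.04, while the peptide transporter subunit TAP1 fell by 0.44. Of 25 tested genes of NF-kappa-B and cytokines 11 rose and 8 fell (8 higher and 13 lower with library totals), with the feedback inhibitors NFKBIA and TNFAIP3 at 1.07 and 2.74 and the subunit REL at -2.54; CXCL8 had too few counts to be tested. Leukocyte markers were at the low levels given above, and of the 5 tested 1 was called higher, 1 lower and 3 were not called.

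RNA processing divided between the core and its regulators. Of 48 spliceosome genes 33 rose and 10 fell (median 0.60, corrected 0.42; 25 higher and 17 lower with library totals), and 15 of 16 Sm and LSm proteins, the rings that hold small nuclear RNAs, rose. SNRPD1 rose by 0.68 and the branch site protein SF3B6 by 1.78, while SF3B1 fell by 0.40 (0.26 after correction) and PRPF8 fell by 0.63. Of 46 hnRNP, SR and related splicing regulators 31 fell and 12 rose (median -0.50, corrected -0.27). HNRNPA1, a splicing repressor, had 1619.7 and 1658 CPM in control and 718 and 737 in ZM11-kd1 (log2 fold change -1.17 ± 0.05, adjusted p = 6.37e-11). SRSF1, an activator of exon inclusion, had 91.0 and 90.4 and 47.2 and 47.1 CPM (log2 fold change -0.94 ± 0.06, adjusted p = 1.77e-09), and RBFOX2 fell by 1.45. In these 3 genes the groups did not overlap, as was so at 89.69% of all genes. Splicing itself was not measured here.

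Of 66 chromatin regulators 46 fell and 13 rose (33 and 24 after correction), but they are long genes, and the median of -0.45 was then -0.11. All 3 DNA methyltransferases fell, and DNMT3B had 17.1 and 20.2 CPM in control and 1.00 and 1.25 in ZM11-kd1 (log2 fold change -4.05 ± 0.18, adjusted p = 3.36e-11). EZH2, which methylates histones at silenced genes, fell by 2.59, and SETD2, which writes the mark that ZMYND11 reads, stood at -1.10 and at -0.33 after correction. HDAC11 rose by 1.73. Of 40 DNA repair genes 20 fell and 13 rose, with LIG1, the replication ligase, at -3.37 and XRCC1, a scaffold of base excision repair, at 1.14. Of 44 nucleoporins and karyopherins 29 fell and 7 rose (21 and 15 after correction), with a median of -0.58 that then came to -0.10. Of 42 primary cilium genes 26 fell and 9 rose (median -0.38, corrected -0.32; 15 higher and 22 lower after correction), with the cilium motor DYNC2H1 at -2.64. Of 478 ZNF genes 239 fell and 119 rose (177 and 176 after correction), and their median went from -0.28 to 0.01 with the correction.

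Histone genes of the clusters rose. Of 42 tested histone cluster genes 39 rose and none was called lower, 38 rising at least 2-fold, with a median of 2.63 that was 1.64 after correction and 2.28 with library totals. The linker histone gene H1-2 had 12.8 and 13.1 CPM in control and 413 and 457 in ZM11-kd1 (log2 fold change 5.07 ± 0.08, adjusted p = 6.11e-15). H2AC6, a gene for histone H2A, had 42.4 and 40.5 and 539 and 535 CPM (log2 fold change 3.69 ± 0.07, adjusted p = 1.35e-14). The histone genes are short, near-identical copies whose reads may be split between members. Most of their transcripts also lack a poly(A) tail, and whether these libraries were made by poly(A) selection or by rRNA removal is not given in the sources used here, so their level reflects the tailed form to an unknown degree.

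Genes of chromosome 12 fell more often than they rose. Of 868 tested genes on chromosome 12, 220 rose and 453 fell (25.4% and 52.2%), with a median log2 fold change of -0.41 (-0.32 corrected). The medians of the other chromosomes ran from -0.22 to 0.29, and from -0.21 to 0.23 after correction. In all 13 windows of 10 Mb on chromosome 12 with at least 20 tested genes the median was below 0, and in 12 of 13 after correction, against 140 of 250 windows (56%) and 104 of 250 (41.6%) elsewhere. Chromosome 19 had the highest median, 0.29, which the correction brought to 0.04. HNRNPA1 lies on chromosome 12.

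**Figure D4:**
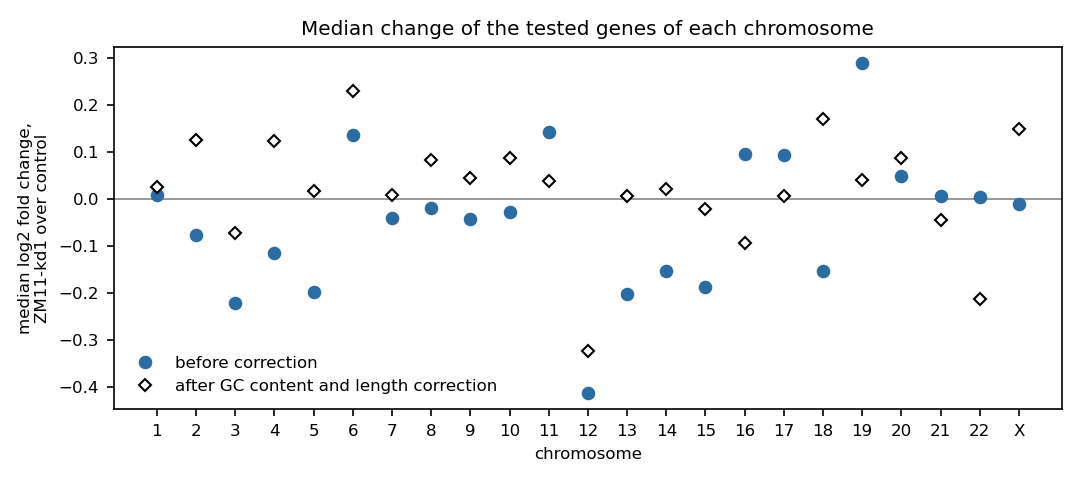
Median log2 fold change of the tested genes of each chromosome in ZM11-kd1 against control, before (circles) and after correction for GC content and length (diamonds). Chromosome 12 is the lowest in both, at -0.41 and -0.32.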

How the data were processed

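The series holds 6 RNA-seq libraries of 22Rv1 cells, of which 2 control and 2 ZM11-kd1 libraries were compared here. Samples were grouped by their labels. The authors checked reads with FastQC 0.11.9, trimmed adapters and aligned the reads to hg38 with STAR 2.7.9a, and HTSeq 0.13.5 is listed in the submitters' processing notes. The authors deposited raw, unnormalized read counts for each gene symbol. The annotation used for counting and its use of strand are not given in the sources used here.

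The test was that of edgeR 4.0.16 under R 4.3.3 (TMM scaling, the filterByExpr filter, the quasi-likelihood test without robust estimation), in one fit of all 6 libraries with 3 residual degrees of freedom, for ZM11-kd1 minus control. The filter, the scaling, the correction for GC content and length and the mean log2 CPM used to choose named genes also drew on all 6. P-values were adjusted over the 16510 genes by the Benjamini-Hochberg method, and genes under 0.05 were called. The standard error of a log2 fold change was taken as its size over the square root of F. Of 35322 symbols, 32852 matched GENCODE 44 by name, 13 and 237 by RefSeq mitochondrial symbols and synonyms, and 2220 did not match, so GC content and length were known for 97.4% of tested genes. Counts identical to another gene's in each library were found for 161 of the 14877 genes that summed to 100 or more, and single values of such genes are uncertain.

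The 53 gene lists and 48 families, the parts of lists that share a symbol stem, the motifs and the alternatives were chosen with earlier results of these data known. The named genes are ZMYND11, the key members of each list, up to 4 members in each direction with the largest change (2 for families, mean of at least 1 log2 CPM, groups not overlapping), and the 15 largest rises and falls outside the cell cycle list (mean of at least 3 log2 CPM, same call after correction for GC content and length). Genes with printed promoters, and members named in the text outside this rule, were chosen after their values were seen. Some genes that the rule names are not reported here. No set test was run. Alternatives were scaling by DESeq2 size factors or library totals, the Wald test of DESeq2 1.42.0, dropping the filter, requiring 10 counts in each library, blocking on the replicate number, fitting the compared groups alone, a lowess correction for GC content and length (span 0.3), each library left out in turn, and a fold of at least 2. With simulated counts for 16019 genes, 200 of them changed, the fit recovered 86%, 96%, 100% and 100% of genes changed 1.5, 2, 3 and 4 times, and 10.75% of its calls were false. That setting had a far smaller share of changed genes than the 78% called here and no trend with gene length. Its rates may therefore not hold for these data. The totals of 26844128 to 38193748 counts per library limit the precision of low counts, and replicates of a group differed by more than sampling noise (chi-square per degree of freedom 2.356 and 3.973). Figures were drawn with matplotlib 3.10.9 in Python 3.11.15.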

Additional observations from a re-analysis of the deposited data

How the results depend on the processing

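The count of 12882 called genes stayed within 1.5 times under every alternative fit, from 11508 to 13186, and a fold of at least 2 beside the adjusted p left 6945. With library totals the calls were 4596 higher and 8420 lower, against 6310 and 6572. With the replicate block, the calls were 12545, of which 6162 were higher. Same-numbered control and ZM11-kd1 libraries did not deviate together (correlation 0.0586 over 10243 genes), so the numbers were not taken as pairs, and no list count moved by over 1.5 times with the block. Without 1 library, the calls ranged from 11674 to 12026, and ZMYND11 stayed between -2.40 and -2.31. Most counts of list members called in the leading direction stayed within 1.5 times in every alternative. With library totals the members called higher were 5 in glycolysis, 6 in cholesterol synthesis and uptake, 13 in TGF-beta and BMP and 8 among the aminoacyl-tRNA synthetases, and 16 Notch and Hedgehog genes were called lower. With the correction for GC content and length, 12 integrin and focal adhesion genes and 10 stress granule proteins were called lower. With at least 10 counts in every library, 4 UGT genes were called lower, since fewer members were tested. Of the named genes, some changed sign. With library totals, ATF4 stood at -0.15, CDH1 at -0.14, CS at -0.27, FOXA1 at -0.029, KLK4 at -0.087 and ZEB1 at -0.027. With the correction, ATF4 stood at -0.30, HSPA5 at 0.25, KLK4 at -0.56, MDM2 at 0.68, NDUFS1 at 0.33, SF3B1 at 0.26, SLC3A2 at -0.082 and YAP1 at 0.12. SYP, which was not called, stood at -0.36 with library totals and -0.41 with the correction, where it was called lower, at 0.0049 with DESeq2 size factors, 0.0051 with the DESeq2 Wald test, and between -0.059 and 0.051 without 1 library, and ZEB1, also not called, between -0.17 and 1.07. The call of ATF4 was lost without control replicate 1 (0.17, adjusted p = 0.0753), those of SLC3A2 (0.088, adjusted p = 0.108), FOXA1 (adjusted p = 0.574) and KLK4 (adjusted p = 0.193) with library totals, that of SLC3A2 also with the correction (adjusted p = 0.0505), and those of FN1 and GCLM with the correction (-0.11 and -0.12, adjusted p = 0.199 and 0.139). COX1, GAA, HSPA5 and MDM2, not called, were called lower with library totals and with at least 10 counts in every library. COX1, GAA and HSPA5 were called lower, and CS higher, with the compared groups alone, COX1 was called lower without the filter, and with the correction COX1 and GAA were called lower and CS and ZEB1 higher. The causes of these changes were not tested. Depth limits the genes with few counts in 1 group, such as GSTA3, CRYAB, NLRC5 and NSG2, whose fold changes depend on small counts.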

Other observations

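Several further groups were tested that the comparisons above leave aside. Of 20 cytosolic aminoacyl-tRNA synthetases, which load amino acids onto tRNAs, 14 rose and 5 fell (8 and 6 with library totals). Their median log2 fold change was 0.38 (corrected 0.51), and 0.02 with library totals. YARS1 and SARS1 rose by 1.56 and 1.47, and LARS1, which loads leucine, fell by 1.49. Of 26 genes of serine and one-carbon metabolism 12 fell and 8 rose (18 and 5 with library totals; median -0.13, corrected -0.34). The first enzymes of serine synthesis rose, PHGDH by 1.21 and PSAT1 by 1.34, whereas GLDC, which breaks down glycine, had 15.3 and 14.3 CPM in control and 1.38 and 0.676 in ZM11-kd1 (log2 fold change -3.81 ± 0.27, adjusted p = 6.08e-09), and stood at -4.44 without ZM11-kd1 replicate 1. Of 34 tested stress granule proteins 18 fell and 12 rose, the median of -0.24 being 0.12 after correction (10 lower and 17 higher), and the RNA-binding IGF2BP3 fell by 4.09.

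Of 32 Notch and Hedgehog genes 8 rose and 10 fell, both below the background share, and after correction 13 were higher and 12 lower. HES1, HEY1 and GLI1 stood at 2.12, 1.79 and 1.42 and the receptors NOTCH1 and NOTCH2 at -1.38 and -1.09. Of 40 nuclear receptor and clock genes 19 rose and 16 fell (15 and 20 with library totals), with the clock repressor NR1D1 at 1.68 and the glucocorticoid receptor NR3C1 at 0.91, against the vitamin D receptor VDR at -1.90. Of 33 junction genes 15 rose and 14 fell (12 and 15 after correction). CDH1 (E-cadherin) rose by 0.21 (-0.14 with library totals), and the tight junction scaffold TJP1 and desmoplakin (DSP) fell (-2.01 and -1.83). HOX genes rose in 15 of 30 cases and fell in 5, but after correction 10 were higher and 10 lower (median 0.33, corrected 0.08, and -0.02 with library totals). Potassium channel genes fell in 31 of 66 and rose in 15, and semaphorins and plexins fell in 17 of 29 and rose in 11 (17 and 4 with library totals).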
